A study of Mus musculus with 6 samples.

Results

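The 9 genes described here make, carry or sense retinoic acid in mouse cells. They are the retinaldehyde dehydrogenase genes Aldh1a1, Aldh1a2 and Aldh1a3, their close relative Aldh1a7, the retinol dehydrogenase gene Rdh10, the binding protein genes Crabp1 and Crabp2, the uptake receptor gene Stra6 and the receptor gene Rarb. They were chosen from a count table of 55401 genes after Aldh1a1 and Aldh1a7 had been seen among the largest rises of shControl cells between day 0 and day 7. The day 7 against day 0 values of shControl cells are therefore a description with no test. Of the 9 genes, 7 had at least 1 count and 5 reached 10 counts in at least 1 library.

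The RNA came from C3H10T1/2, a mouse mesenchymal line that can form bone and fat cells. Cells carrying a control hairpin (shControl, whose genotype label is WT), a hairpin against Nfib (shNFIB) or a hairpin against Kmt2a, the gene of MLL1 (shMLL1), were taken at confluence, untreated (day 0), and on day 7 in osteogenic medium. That medium contained dexamethasone at 0.1 µM, a phosphate donor (β-glycerophosphate, 20 mM) and a stable ascorbic acid derivative (100 µg/ml), so that the 3 day 7 libraries share the glucocorticoid as well as the time. Each of the 6 conditions had 1 library, with 21608680 to 34774066 counts, and each knockdown line carries a single hairpin. Whether the lines are clones is not given in the sources used here. Levels are given as CPM, counts relative to the TMM-scaled total of the library. Nfib was at 35.3 and 8.15 CPM in shNFIB at day 0 and day 7, against 116 and 83.5 CPM in shControl, and Kmt2a was at 30.9 and 34.8 CPM in shMLL1 against 74.7 and 66.3 CPM. Of 8 mesenchymal markers, 7 reached 10 counts, the exception being Nt5e with 1 to 6 counts. Of 4 blood and endothelial markers, Ptprc and Cdh5 stayed at 0 to 3 counts in every library. Cd68 was more than 2-fold higher at day 7 than at day 0 in each line. Pecam1 reached 10 counts only in shMLL1 at day 7, where it was more than 2-fold above both shMLL1 at day 0 and shControl at day 7. In bulk RNA, fewer cells of a type and less RNA per cell cannot be told apart.

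Retinoic acid is made from vitamin A in sequential oxidations. Retinol bound to its serum carrier enters some cells through Stra6, Rdh10 oxidises it to retinaldehyde, and the ALDH1A enzymes oxidise retinaldehyde to retinoic acid. Crabp proteins carry retinoic acid within the cell, nuclear receptors such as RARβ bind it and switch target genes, and Cyp26 enzymes break it down. Rarb is itself a classical retinoic acid target. Aldh1a7 is a rodent gene very like Aldh1a1, but its enzyme is known for little or no activity on retinaldehyde.

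Aldh1a1 (ENSMUSG00000053279) spans chr19:20492715-20643465 on the plus strand of GRCm38, and Aldh1a7 (ENSMUSG00000024747) spans chr19:20692953-20727562 on the minus strand, 49.5 kb further on. Their coding sequences, each 1506 bases long, were 91.6% identical. The other pairs among the 4 Aldh1a genes were 67.9% to 69.8% identical. RefSeq (GRCm38.p6) promoter windows of 300 bases were found for 6 of the 9 genes, and none for Rdh10, Crabp2 and Aldh1a3. The 100 bases before the start site of Aldh1a7, and before the start site of Aldh1a1 that lies inside that gene, are shown because these promoters belong to the pair that rose together. This Aldh1a1 window was taken because it was the one more like the Aldh1a7 window. Which start site the cells use was not tested. Capitals mark the 6 bases at which the stretches shown differ.
Aldh1a1: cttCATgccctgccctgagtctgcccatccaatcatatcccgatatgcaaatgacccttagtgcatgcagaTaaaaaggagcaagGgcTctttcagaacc
Aldh1a7: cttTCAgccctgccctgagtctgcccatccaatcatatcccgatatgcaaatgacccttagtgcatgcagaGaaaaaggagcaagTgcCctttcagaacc
The first lies at chr19:20601868-20601967 on the plus strand and the second at chr19:20727557-20727656 on the minus strand. The longest run without a difference was 65 bases. Over the 250 bases before the start sites, 73.3% of 236 aligned bases were identical. For the other Aldh1a1 window, whose start site lies upstream of the first, that share was 61.2% of 219 aligned bases.

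The 10 promoter windows of the members were searched on both strands for the direct repeats that retinoic acid receptors bind. Rdh10, Crabp2 and Aldh1a3 had no window and were not searched. The half-sites allowed were AGGTCA and its variant AGTTCA, and also GGGTCA and its variant GGTTCA, repeated in the same orientation with 5 bases (DR5) or 2 bases (DR2) between them. The Rarb window held a DR5, shown here because Rarb is the receptor gene of the set, with capitals marking its half-sites.
Rarb: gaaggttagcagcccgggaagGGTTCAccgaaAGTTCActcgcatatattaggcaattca
This stretch lies at chr14:16575491-16575550 on the minus strand, and the repeat begins at position -53 from the start site. A DR5 was present in 0.0974% of all 32851 promoter windows. No window of the other members held one. A DR2, present in 0.268% of windows, was in none of the members' windows. Neither was the glucocorticoid element, AGAACA followed by TGTTCT 3 bases on (0.00913% of windows), its looser form GNACA followed by TGTNC 3 bases on (0.475%), or the NFI palindrome, TTGGC followed by GCCAA 5 bases on (0.0365%). The NFI half-site TTGGC on its own was in both Aldh1a1 windows and in the Aldh1a7 window, as in 46.7% of all windows. It was in no window of the other members. A missing match says only that these letters are not in this window.

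Aldh1a1 and Aldh1a7 went from near silence to high expression in all 3 lines. At day 0, Aldh1a1 had 22 counts in shControl, 51 in shNFIB and 95 in shMLL1. At day 7 it had 7685, 9745 and 9530 counts. On the scale of CPM, these levels were 0.689, 1.62 and 3.15 at day 0 and 252, 329.7 and 391 at day 7. The lowest day 7 library thus stood far above the highest day 0 library. Aldh1a7 had 30, 117 and 191 counts at day 0 in shControl, shNFIB and shMLL1, and 5699, 7531 and 17778 counts at day 7. These counts correspond to 0.939, 3.71 and 6.33 CPM at day 0 and to 187, 255 and 729 CPM at day 7. Here too no day 0 library overlapped a day 7 library, and shMLL1 was the highest on both days. How many of all genes separated the days in this way was not counted.

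**Figure D1:**
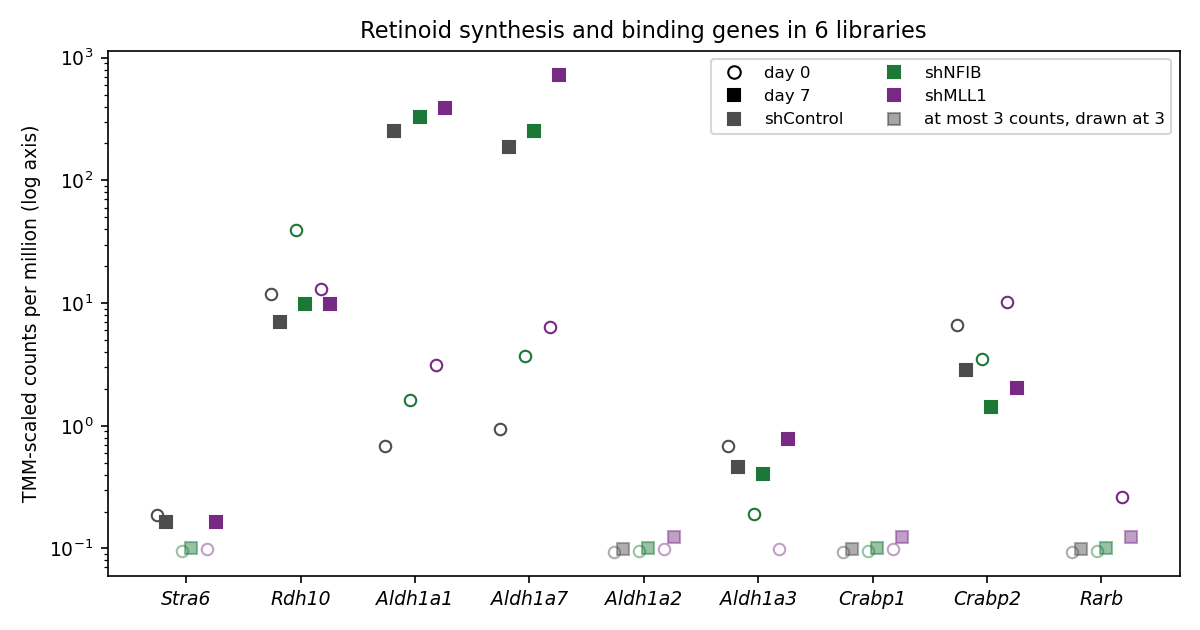
Levels of the 9 genes in each of the 6 libraries, in TMM-scaled CPM on a log axis. Open circles are day 0, filled squares day 7, colours the lines, and pale symbols libraries with at most 3 counts drawn at the level of 3 counts. Aldh1a1 lies between 0.689 and 3.15 at day 0 and between 252 and 391 at day 7, while Aldh1a2 and Crabp1 have 0 counts throughout.

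The time in osteogenic medium was tested in the 4 knockdown libraries, without those of shControl in which the rise of the pair had been seen. Results of all 6 libraries were known when the genes were chosen, so that the p-values of the pair are not independent support. In shNFIB, Aldh1a1 was 204-fold higher at day 7 (log2 ratio 7.67, 95% counting interval 7.28 to 8.10) and Aldh1a7 68.8-fold higher (6.10, 5.84 to 6.38). In shMLL1, the ratios were 124-fold for Aldh1a1 (6.95, 6.66 to 7.26) and 115-fold for Aldh1a7 (6.85, 6.64 to 7.06). The intervals are exact Clopper-Pearson intervals and cover counting error only. With line as a block, edgeR's quasi-likelihood test on the 4 knockdown libraries gave a log2 fold change of 7.30 for Aldh1a1 (SE 0.49, adjusted p = 7.27e-05) and of 6.47 for Aldh1a7 (SE 0.48, adjusted p = 0.000109). This fit has 1 residual degree of freedom, from the difference between the responses of the 2 knockdown lines. The test moderates the spread of each gene toward that of all genes. These p-values therefore rest in large part on spread borrowed from other genes, with no replicate of a line on a day. In shControl, for description, Aldh1a1 was 366-fold and Aldh1a7 199-fold higher at day 7. Ranked by this ratio from the highest, Aldh1a1 was 9 of 16786 genes in shControl, 21 of 16253 in shNFIB and 30 of 17049 in shMLL1, and Aldh1a7 was 13, 59 and 33 in the same lists.

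A gene was counted as past 2-fold when its ratio exceeded 2 either way, among genes with at least 10 counts in 1 of the 2 libraries. In shControl, 2 members were higher past 2-fold at day 7 and 1 was lower, with 23.0% of all genes higher and 14.9% lower. In shNFIB, 3 members were higher and 2 lower, against 16.6% and 13.9% of all genes. In shMLL1, 3 were higher and 1 lower, against 25.8% and 19.9% of all genes. In each case 5 of the 9 members had enough counts to be counted, and Aldh1a3 in shNFIB and in shMLL1 was counted only through its day 7 library. In the test of the knockdown lines, a gene was called at an adjusted p under 0.05 and a fold over 2. Of 5 members tested, Aldh1a1 and Aldh1a7 were called higher, as were 7.61% of 15937 genes, and Crabp2 was called lower, as were 7.51%. Aldh1a1 and Aldh1a7 had been chosen for their rise, so that their calls, and their part in the counts above, are not independent support.

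**Figure D2:**
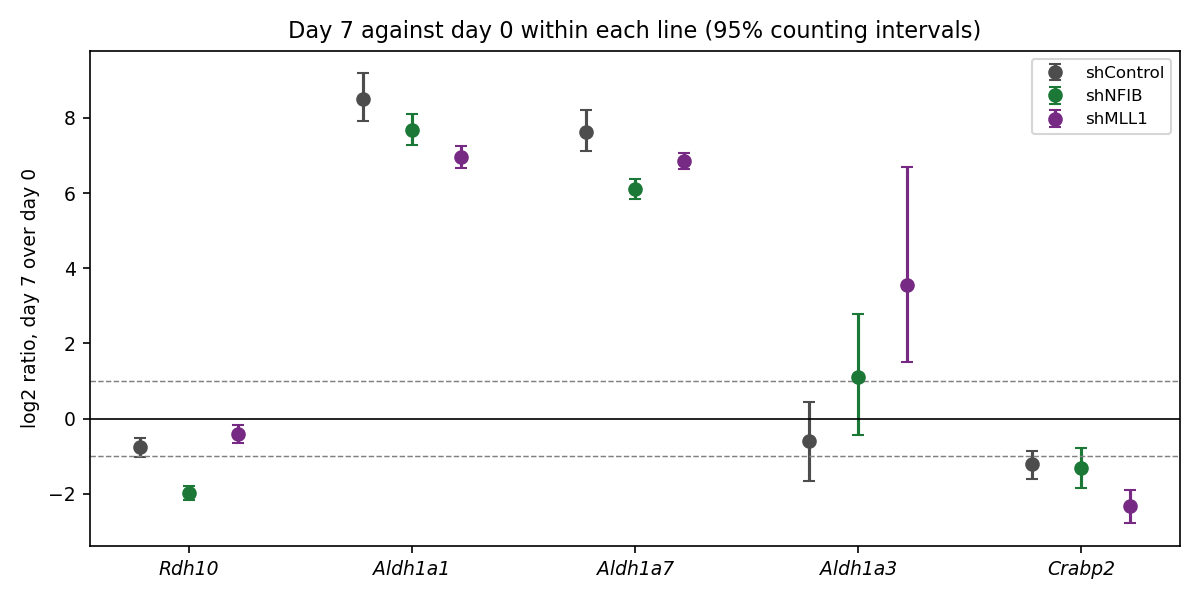
Log2 ratio of day 7 over day 0 within each line for the 5 members with at least 10 counts, with 95% counting intervals; dashed lines mark 2-fold. Aldh1a1 and Aldh1a7 lie between 6.10 and 8.52 in every line, and Crabp2 lies between -2.32 and -1.22.

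The share of counts between the pair differed among libraries. Aldh1a7 had 1.36 times the counts of Aldh1a1 in shControl at day 0 (95% counting interval 0.761 to 2.48), 2.29 times in shNFIB (1.64 to 3.25) and 2.01 times in shMLL1 (1.56 to 2.60). At day 7 the ratio was 0.742 in shControl (0.716 to 0.768) and 0.773 in shNFIB (0.750 to 0.796). In shMLL1 at day 7 it was 1.87 (1.82 to 1.91), so that the Aldh1a7 counts exceeded those of Aldh1a1 in that day 7 library but not in the other two. With 1 library a condition, this difference between lines was not tested. The transcripts shared 1 window of 100 bases, the read length, of 1967 windows in Aldh1a7, and 151 of 2017 windows of 50 bases. Per kilobase of annotated exon, which differs between the genes (4937 bases for Aldh1a1 and 2066 for Aldh1a7), the level of Aldh1a7 was 1.77 to 5.48 times that of Aldh1a1. The Aldh1a1 length includes exons of all its annotated transcripts.

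**Figure D3:**
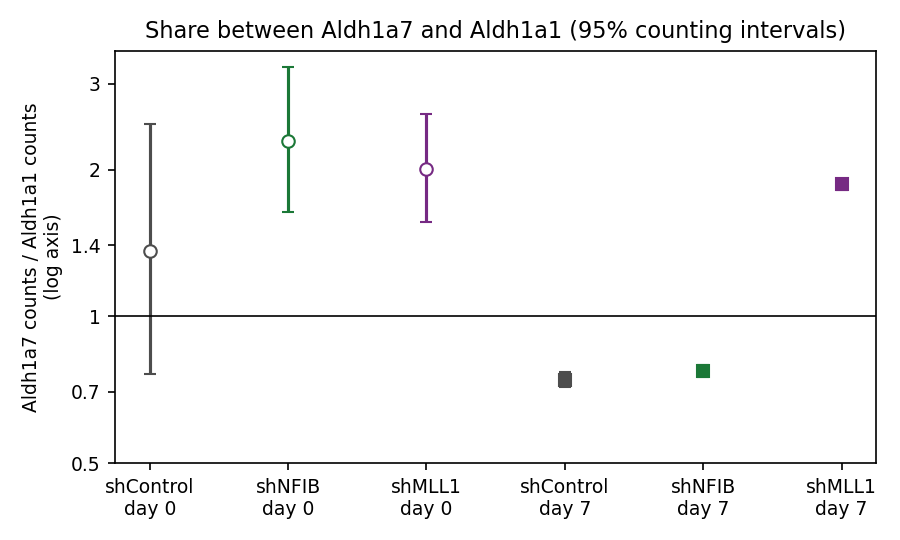
Counts of Aldh1a7 divided by counts of Aldh1a1 in each library, on a log axis, with 95% counting intervals; open circles are day 0 and filled squares day 7. At day 7 shControl (0.742) and shNFIB (0.773) lie under 1 and shMLL1 (1.87) lies above it.

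Before the medium was given, both genes were already higher in the knockdown lines than in shControl, though low. Aldh1a1 was 2.35-fold higher in shNFIB at day 0 (log2 ratio 1.23, 0.48 to 2.02) and 4.57-fold higher in shMLL1 (2.19, 1.51 to 2.93). Aldh1a7 was 3.95-fold higher in shNFIB (1.98, 1.39 to 2.61) and 6.74-fold higher in shMLL1 (2.75, 2.19 to 3.36). At day 7, Aldh1a1 was 1.31-fold higher in shNFIB and 1.55-fold higher in shMLL1, and Aldh1a7 was 1.36-fold and 3.90-fold higher. These comparisons share the shControl libraries with each other and with the choice of the pair. Past 2-fold from shControl were 4 members in shNFIB and 3 in shMLL1 at day 0, against 13.7% and 20.5% of all genes. At day 0, Aldh1a3 was counted only through its 22 counts in shControl. At day 7 it was 1 member in each, Crabp2 in shNFIB and Aldh1a7 in shMLL1, against 21.4% and 15.7%.

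Each knockdown line was compared with shControl over both days in 1 model on all 6 libraries. For Aldh1a1 and Aldh1a7 these values are a description with no test, because the shControl libraries had served to choose the pair. The fitted log2 fold change of Aldh1a7 in shMLL1 was 2.27 (SE 0.38). Of the 3 other members tested, Rdh10, Crabp2 and Aldh1a3, edgeR and DESeq2 called 0 in either line, where edgeR called 0.418% of 16742 genes for shNFIB and 0.0299% for shMLL1. Of the same genes, DESeq2 called 260 higher and 300 lower for shNFIB, and 175 higher and 219 lower for shMLL1. At an unadjusted p under 0.05 by edgeR there were Rdh10 in shNFIB, with 12.4% of all genes, and 0 of the 3 in shMLL1, with 9.20% of all genes.

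The 2 other retinaldehyde dehydrogenases were scarce. Aldh1a2, the main enzyme of retinoic acid synthesis in early embryos, had 0 counts in all 6 libraries, which allows up to 3 counts, or 0.0939 to 0.123 CPM. Aldh1a3 (chr7:66390890-66427517), also a retinaldehyde dehydrogenase, had 22, 6 and 2 counts at day 0 in shControl, shNFIB and shMLL1, and 14, 12 and 19 counts at day 7. Its values overlapped between the days. In shMLL1 the ratio of day 7 over day 0 was 11.7-fold with a wide interval (log2 ratio 3.55, 1.50 to 6.70). The test of the knockdown lines gave a log2 fold change of 2.13 (SE 0.90, adjusted p = 0.140 by edgeR), which did not pass. Aldh1a3 entered that test through its day 7 libraries alone, so that only a rise could have been called.

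Rdh10 (chr1:16105774-16133734), which supplies retinaldehyde to these enzymes, was highest in shNFIB at day 0. It had 378 counts in shControl, 1237 in shNFIB and 395 in shMLL1 at day 0, and 213, 293 and 241 counts at day 7. In CPM these are 11.8, 39.2 and 13.1 at day 0 and 6.99, 9.91 and 9.88 at day 7. Each line was lower at day 7 than at day 0, and all 3 day 7 libraries were below all 3 day 0 libraries. How many of all genes did so was not counted. Over all 6 libraries, 7468 of 15741 genes were at an unadjusted p under 0.05 for the day by edgeR. The fall of Rdh10 was 3.95-fold in shNFIB (log2 ratio -1.98, -2.17 to -1.80) but 1.33-fold in shMLL1 (-0.41, -0.64 to -0.17) and 1.69-fold in shControl (-0.76, -1.01 to -0.51). The test over both knockdown lines gave a log2 fold change of -1.21 (SE 0.43, adjusted p = 0.0870 by edgeR) and did not pass. At day 0, Rdh10 was 3.31-fold higher in shNFIB than in shControl (log2 ratio 1.73, 1.56 to 1.90). At day 7 it was 1.42-fold higher (0.50, 0.24 to 0.77), and over both days its log2 fold change of 1.15 (SE 0.39, adjusted p = 0.299 by edgeR) did not pass.

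Of the binding proteins, Crabp2 (chr3:87948666-87953376), which delivers retinoic acid to its receptors, fell in the knockdown lines, and Crabp1 was not detected. Crabp2 had 212 counts in shControl, 111 in shNFIB and 309 in shMLL1 at day 0, and 87, 42 and 50 counts at day 7. In CPM these are 6.64, 3.52 and 10.2 at day 0 and 2.85, 1.42 and 2.05 at day 7, so that the days did not overlap. The share of all genes without such overlap was not counted. The fall was 2.47-fold in shNFIB and 5.00-fold in shMLL1, and 2.33-fold in shControl for description. The test gave a log2 fold change of -1.83 (SE 0.53, adjusted p = 0.0468 by edgeR). This call is close to the threshold, since with DESeq2 size factors the adjusted p was 0.0582, with library size alone 0.0928 and without the line block 0.131. It was 0.0161 by DESeq2's own test, 0.00344 with no filter on low counts and 0.0166 with the shControl libraries included. Crabp1 had 0 counts in all libraries.

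Stra6 and Rarb, the uptake receptor and the nuclear receptor gene among the members, were at or near the limit of detection. Stra6 had 6, 1 and 0 counts at day 0 in shControl, shNFIB and shMLL1, and 5, 2 and 4 at day 7. Rarb had 2, 2 and 8 counts at day 0 and 0, 1 and 0 at day 7. In shMLL1, Rarb was at least 2.16-fold lower at day 7 against the limit of 3 counts in that library. In the other lines both days were at or under that limit. Stra6 (chr9:58063788-58153996) overlaps Gm16131 on the same strand, so that reads from the shared stretch may be left uncounted or given to the other gene. Rarb (chr14:16430839-16819156), Aldh1a1 and Aldh1a2 overlap annotated genes on the other strand, which matters where strand is not used.

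The wider pathway was described with lists of genes by role. Of 6 retinol binding and uptake genes, 2 were tested over the days in the knockdown lines and 1 was called. Rbp2, a cellular retinol carrier, rose, with a log2 fold change of 5.14 (SE 0.97, adjusted p = 0.00782 by edgeR). It had 0, 2 and 2 counts at day 0 in shControl, shNFIB and shMLL1 and 58, 15 and 163 at day 7. Its day 0 counts are at or under the limit of 3. Rbp2 thus entered the test through its day 7 libraries alone, and only a rise could be called.

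Of 18 enzymes that interconvert retinol and retinaldehyde, 11 were tested, 3 were called higher and 1 lower, with a median log2 fold change of -0.19 against -0.02 over all genes. Dhrs3, which reduces retinaldehyde back to retinol, rose in each line. It went from 18.7, 12.5 and 10.5 CPM in shControl, shNFIB and shMLL1 to 209, 356 and 247 CPM. Its log2 fold change was 4.69 (SE 0.40, adjusted p = 0.000173 by edgeR). Adh1, an alcohol dehydrogenase that can oxidise retinol, rose as well, from 8.70, 2.53 and 0.298 CPM to 41.5, 40.4 and 7.66 CPM. Its log2 fold change was 4.27 (SE 0.44, adjusted p = 0.000300 by edgeR). Rdh5, a retinol dehydrogenase, had a smaller rise of 1.38 on the log2 scale (adjusted p = 0.0383 by edgeR). Dhrs9, a short-chain dehydrogenase that can oxidise retinol, was the enzyme called lower. It fell from 5.70, 20.6 and 37.2 CPM to 1.08, 8.15 and 1.19 CPM, with a log2 fold change of -3.05 (SE 0.79, adjusted p = 0.0309 by edgeR).

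**Figure D4:**
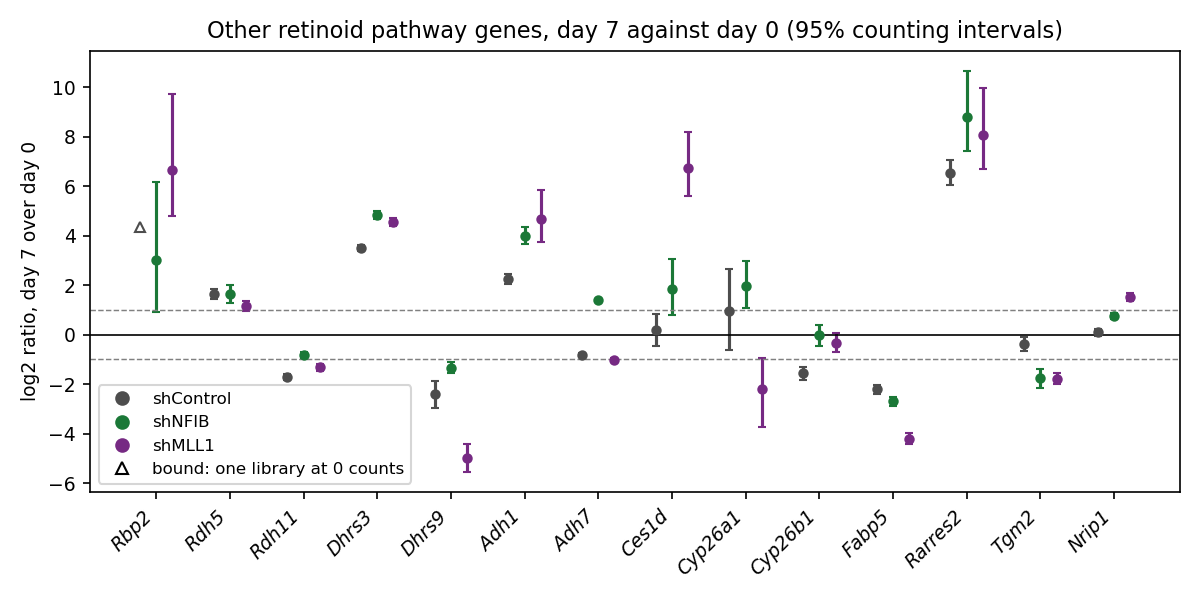
Log2 ratio of day 7 over day 0 in each line for 14 other retinoid pathway genes, with 95% counting intervals; dashed lines mark 2-fold and the triangle a lower bound where day 0 had 0 counts. Dhrs3, Adh1 and Rarres2 lie above 2-fold in all 3 lines, Fabp5 and Dhrs9 lie below it, and Adh7 and Cyp26a1 lie on opposite sides in shNFIB and shMLL1.

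Of 8 enzymes of retinyl esters and carotenoids, 4 were tested and 1 was called, Ces1d, a carboxylesterase able to cleave esters. It had 41, 10 and 6 counts at day 0 in shControl, shNFIB and shMLL1 and 44, 34 and 518 at day 7. The test gave a log2 fold change of 4.32 (SE 1.07, adjusted p = 0.0250 by edgeR). Ces1d, too, passed the filter on low counts through the day 7 knockdown libraries alone, so that only a rise could be called. The log2 ratio of day 7 over day 0 was 6.74 in shMLL1 and 1.86 in shNFIB, a difference that was not tested.

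Of 4 genes for retinoic acid breakdown and its other carriers, all were tested and 1 was called. Fabp5, which carries fatty acids and retinoic acid, fell from 47.4, 54.3 and 139 CPM to 10.3, 8.39 and 7.50 CPM in shControl, shNFIB and shMLL1. Its log2 fold change was -3.45 (SE 0.45, adjusted p = 0.000968 by edgeR). The hydroxylase genes did not pass: Cyp26a1 had 6, 13 and 34 counts at day 0 and 11, 48 and 6 at day 7. Cyp26b1 had log2 ratios of -0.03 in shNFIB and -0.33 in shMLL1. In shControl, for description, Cyp26b1 was lower past 2-fold at day 7, with 18.2 CPM at day 0 and 6.13 CPM at day 7. At day 0 it was past 2-fold below shControl in both knockdown lines, at 3.01 CPM in shNFIB and 5.04 CPM in shMLL1.

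Of 11 retinoid receptors and coregulators, 10 were tested and 1 was called higher, Nrip1, a corepressor of nuclear receptors, with a log2 fold change of 1.13 (adjusted p = 0.0474 by edgeR). Unlike Rarb, other receptor genes were well detected. Over the 6 libraries, Rarg was at 165 to 305 CPM and Rara at 36.7 to 81.9 CPM. Rxra was at 52.0 to 163 CPM and Rxrb at 37.5 to 56.3 CPM, while Rxrg had 0 counts. Of 12 retinoic acid response genes, 9 were tested, 3 were called higher (Dhrs3, Rarres2 and Nrip1) and 1 lower (Tgm2), with a median log2 fold change of 0.53. Rarres2, which encodes the secreted chemerin precursor, went from 34, 4 and 4 counts at day 0 to 2986, 1649 and 867 at day 7 in shControl, shNFIB and shMLL1. Its log2 fold change was 8.39 (SE 0.50, adjusted p = 3.90e-05 by edgeR). In the knockdown lines Rarres2 passed the filter on low counts through day 7 alone, so that only a rise could be called. Tgm2, tissue transglutaminase, fell by 1.78 on the log2 scale (adjusted p = 0.0143 by edgeR). In the comparisons of each knockdown line with shControl over both days, edgeR called 0 of the 34 genes tested from these 6 lists. At an unadjusted p under 0.05 there were 6 in each line, beside 12.4% of all genes for shNFIB and 9.20% for shMLL1. DESeq2 called 3 of the 34 in shNFIB and 2 in shMLL1. Of all 16742 genes, it called 260 higher and 300 lower in shNFIB, and 175 higher and 219 lower in shMLL1.

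Of 15 other aldehyde dehydrogenases, 12 were tested, and 2 were called higher and 2 lower. Aldh3a1 and Aldh6a1 rose, by 2.01 and 2.02 on the log2 scale, and Aldh1l2 and Aldh18a1 had log2 fold changes of -3.42 and -2.09. The first pair oxidise aldehydes of lipid and amino acid breakdown, and the second pair act in mitochondrial folate and proline metabolism. None of these changes was near the size of those of Aldh1a1 and Aldh1a7, which had been chosen for being among the largest rises. Of the 3 nearest protein-coding genes on each side of the pair, 4 were tested. Zfand5 and Gda, both on the Aldh1a7 side, rose by 1.57 and 1.79 on the log2 scale (adjusted p = 0.0177 and 0.00559 by edgeR). Anxa1, 102 kb before Aldh1a1, had a log2 fold change of 0.38 and did not pass (adjusted p = 0.628 by edgeR).

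Some marker lists moved with the day as well. The summed level of 8 glucocorticoid response genes was 247 to 279 CPM at day 0 and 1484, 1872 and 2255 CPM at day 7 in shControl, shNFIB and shMLL1, and 7 of the 8 were called higher in the knockdown lines. Among the 8, Zbtb16 had 0 counts at day 0 in every line, so that only a rise could be called. One of these genes, Tsc22d3, which encodes the glucocorticoid-induced leucine zipper, was at 428, 411 and 1181 CPM at day 7, and without it (chosen after the values were seen) the sums were 1056, 1461 and 1074 CPM. The summed level of 9 adipocyte markers was 18.2 to 63.3 CPM at day 0 and 169, 93.4 and 32.0 CPM at day 7 in the same order of lines, and Adipoq had 0 or 1 count in every library. The lipid droplet gene Plin1 had 472 counts in shControl at day 7 but 9 in shNFIB and 28 in shMLL1. Of 4 adipocyte markers tested over the days in the knockdown lines, Cfd alone was called, higher at day 7 (8.19, adjusted p = 0.00499 by edgeR). Against shControl over both days, Cfd was called lower in shNFIB (-6.51, adjusted p = 0.0266 by edgeR) but not in shMLL1 (-5.19, adjusted p = 0.0779 by edgeR). Pparg, the fat cell regulator, made up 84.2 CPM of the sum in shNFIB at day 7, and without it (also chosen after the values were seen) the day 7 sums were 127, 9.17 and 11.1 CPM. The summed level of 7 osteoblast markers was 1077 to 1162 CPM at day 0 and 2648, 1314 and 1418 CPM at day 7. Of these 7, 2 were tested over the days in the knockdown lines and 0 were called. At day 7, 3 of 5 counted were past 2-fold below shControl in each knockdown line and 0 above. They were Runx2 and Bglap in both, with Dmp1 in shNFIB and Alpl in shMLL1. Of all genes, 21.4% and 15.7% were past 2-fold either way. Of the chondrocyte markers, 2 of 4 were tested and Col2a1, a cartilage collagen gene, was called lower, with a log2 fold change of -4.60 (adjusted p = 0.00943 by edgeR). Of 7 mesenchymal markers tested, Pdgfra was called higher (2.33, adjusted p = 0.0209 by edgeR) and Cd44 lower (-2.25, adjusted p = 0.00771 by edgeR). Another of them, Thy1, was called higher in shNFIB than in shControl over both days (2.33, adjusted p = 0.0266 by edgeR). Of the blood and endothelial list, Cd68 rose from 1.20 to 2.19 CPM at day 0 to 3.99 to 7.58 CPM at day 7. The part of these cell states, or of dexamethasone, in the levels of the members was not tested.

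**Figure D5:**
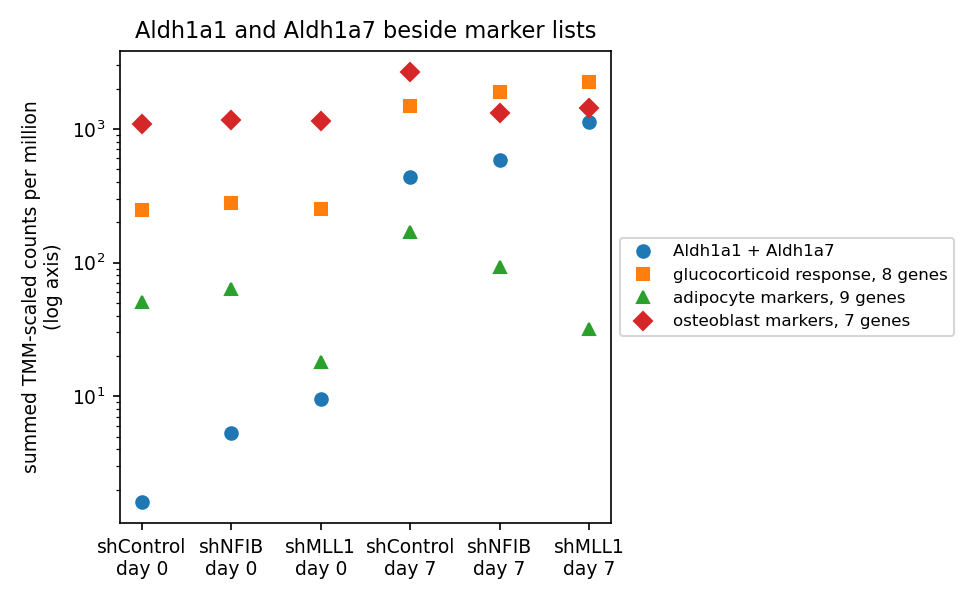
Summed levels of Aldh1a1 with Aldh1a7, of 8 glucocorticoid response genes, of 9 adipocyte markers and of 7 osteoblast markers in each library, in TMM-scaled CPM on a log axis. The Aldh1a pair reaches 439, 584 and 1119 at day 7 in shControl, shNFIB and shMLL1. The adipocyte markers reach 169, 93.4 and 32.0, of which Pparg alone is 84.2 in shNFIB.

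The genes whose pattern over the 6 libraries was most like each member were found from the root mean square distance between profiles of log2(CPM + 0.5), each centred on its mean. For Aldh1a1 the nearest of 13332 genes was Aldh1a7 (distance 0.599), followed by Ifi207 (0.901), an interferon-inducible gene, and Apod (1.04), a lipid carrier. For Aldh1a7 they were Aldh1a1 (0.599), Ifi207 (0.866) and Ccbe1 (1.07). Ifi207 was at 1.44, 2.57 and 22.1 CPM at day 0 in shControl, shNFIB and shMLL1 and at 203, 753 and 554 CPM at day 7. The nearest genes to Rdh10 were Gcnt4 (0.213), the kinase gene Lrrk2 (0.225) and the calcium channel gene Orai2 (0.234). Those nearest to Crabp2 were the galactokinase gene Galk1 (0.147), Larp1b (0.177) and Sgca (0.187), and those nearest to Aldh1a3 were Lurap1 (0.109), Gm43848 (0.121) and Pcdhgc5 (0.140). With 6 libraries and so many genes, such neighbours are a description of these libraries.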

How the data were processed

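RNA was sequenced from 6 libraries of C3H10T1/2 derivatives. Per the labels and methods, the authors used Trimmomatic 0.39 for trimming, HISAT2 2.2.1 for alignment to GRCm38, SAMtools 1.12 for a mapping quality filter and HTSeq 0.11.1 for counting reads per gene, after removal of PCR duplicates. The deposited values are raw counts. The strand setting and annotation release are not given in the sources used here. Groups came from the sample titles. The members and lists were chosen with earlier results of these data known. Counts were scaled by TMM in edgeR 4.0.16 (R 4.3.3), filtered with filterByExpr and tested by quasi-likelihood with Benjamini-Hochberg adjustment over all genes, at an adjusted p under 0.05 and a fold over 2. The day was tested in the 4 knockdown libraries with line as a block, and each line against shControl in all 6 libraries with day as a term. With 1 library a condition, pairs of libraries have counting intervals (95%, Clopper-Pearson, scipy 1.17.1) and no test. At most 3 counts is the detection limit. DESeq2 1.42.0, other scalings, filters and sample sets were alternatives. The fitting code was tested on simulated data. P-values measure the spread between these libraries, moderated for each gene toward that of all genes. The text names all members; of each list, genes called or past 2-fold, largest first, at most 4 per list and comparison, of which a selection is given and some are not reported here; and the 3 genes with the nearest profile, among those with at least 10 counts wherever the member has them and 60 in all. Positions and lengths come from GENCODE M21, and sequences from RefSeq.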

Additional observations from a re-analysis of the deposited data

Results flagged for a closer look

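Genes of the retinoid lists were looked at again where the same comparison went past 2-fold in opposite directions, with counting intervals excluding no change, in 2 lines or on 2 days. No member did so. With 1 library a condition, these differences were not tested. Adh7, an alcohol dehydrogenase active on retinol, had a log2 ratio of day 7 over day 0 of 1.39 in shNFIB and of -1.01 in shMLL1. Cyp26a1 had 1.98 in shNFIB and -2.20 in shMLL1, and Cyp26c1, with at most 21 counts in a library, had 1.32 and -2.20. Awat2, an acyltransferase with at most 38 counts, had 1.42 in shControl and -1.13 in shMLL1. Ces1d in shMLL1 against shControl had a log2 ratio of -2.69 at day 0 and of 3.88 at day 7.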

How the results depend on the processing

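In the test of day 7 against day 0 in the knockdown lines, 2410 genes were called, and 3935 with all 6 libraries or 998 without the line block. The setting with all 6 libraries includes the shControl libraries in which the pair was seen to rise. Under each of the other alternatives with a test, Aldh1a1 and Aldh1a7 were called higher, at 7.21 to 7.46 on the log2 scale for the former and 6.43 to 6.63 for the latter. The pair had been chosen for its rise, so that these calls are not independent support either. Rdh10 passed with all 6 libraries (-1.04, adjusted p = 0.0452 by edgeR) and with no filter on low counts (-1.24, adjusted p = 0.0126 by edgeR). Scaling by library size alone moved the median of all genes from -0.02 to 0.14. In the line comparisons, 70 genes were called for shNFIB and 5 for shMLL1. These counts were 560 and 394 by DESeq2, 687 and 526 with no filter, and 545 and 199 with only the 4 libraries of the lines compared. The members called in shMLL1 were then 1, 2 and 1, Aldh1a7 in each and Aldh1a1 with no filter, against the shControl libraries that chose them. No member was called in shNFIB under any of them. Requiring the whole counting interval past 2-fold left 3 members of 5 for the day in shNFIB, 2 of 4 for shNFIB against shControl at day 0 and 0 of 1 at day 7. The count of all genes fell markedly as well, in 6 of the 7 pair comparisons, so that a drop is not particular to the members. Depth limits Aldh1a3, Stra6 and Rarb, with at most 22 counts in a library.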
